A study of Mus musculus with 9 samples.

Results

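Genes of sterol and fatty acid synthesis were examined in invariant natural killer T (iNKT) cells of the mouse thymus. The 30 genes were listed by name for their part in synthesis driven by the sterol regulatory element-binding proteins (SREBPs). The rule uses none of their values, but the list was chosen with earlier results of these data known. Of the 30, 29 were among the 21883 genes of the table. *Fads2* was not analysed here. Each gene was measured by RNA sequencing in 9 libraries, 3 from each of 3 groups of sorted thymic iNKT cells from mice of the C57BL/6 strain. WT stage 2 cells (CD44hi NK1.1lo) and WT stage 3 cells (CD44hi NK1.1hi) came from mice that the labels give as 6 weeks old. *Med23*-deficient stage 2 cells came from mice in which Cre driven by the CD4 promoter deletes *Med23*, a subunit of the transcriptional coactivator Mediator, by the CD4+CD8+ thymocyte stage. Their age is not in the labels. The deletion is therefore present in T cells beyond the iNKT lineage and before stage 2. The comparison of the WT groups asks how these genes differ across the last maturation step, and the others ask where *Med23*-deficient stage 2 cells stand relative to each WT stage.

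Cells make cholesterol from acetyl-CoA by the mevalonate pathway to squalene, which is then cyclised and trimmed to cholesterol. Palmitate is made from the same precursor by ATP citrate lyase, acetyl-CoA carboxylase and fatty acid synthase, and is then elongated and desaturated. SREBP2 mainly drives the sterol genes and SREBP1 mainly the fatty acid genes. SCAP escorts both from the endoplasmic reticulum to the Golgi for cleavage, and INSIG1 holds SCAP back when sterols are plentiful. In lymphocytes this programme is known to be turned up by growth signals and cell division. SREBP activity is set largely by cleavage of the protein, which RNA levels do not measure.

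SREBPs bind sterol regulatory elements, usually beside sites for the factors NF-Y and Sp1, and promoters of these genes were therefore read for such letters. Of the 30 genes, 23 had a promoter in the RefSeq table used (GRCm38.p6), as 300-base windows from 250 bases before to 50 bases after a start. *Scd2*, *Scd1*, *Fads1*, *Fdft1*, *Fdps*, *Sqle* and *Stard4* did not. Both strands were searched for TCACNCCAC (a sterol regulatory element), CCAAT (the NF-Y box), CACGTG (an E-box that SREBPs can also bind, identical on both strands) and GGGCGG (the GC box of Sp1). The 250 upstream bases of 3 members are shown with the matches to TCACNCCAC, CCAAT and CACGTG in capitals, where ATTGG is CCAAT on the opposite strand. *Hmgcs1* is shown as the member with a sterol element match, *Sc5d* as a sterol gene with an E-box with the largest difference between the stage 2 groups on the log2(FPKM + 1) scale used for the tests, and *Fasn* as the central fatty acid gene. The windows lie at chr13:119690101-119690350 (plus strand), chr9:42264301-42264550 (minus strand) and chr11:120824548-120824797 (minus strand).
Hmgcs1: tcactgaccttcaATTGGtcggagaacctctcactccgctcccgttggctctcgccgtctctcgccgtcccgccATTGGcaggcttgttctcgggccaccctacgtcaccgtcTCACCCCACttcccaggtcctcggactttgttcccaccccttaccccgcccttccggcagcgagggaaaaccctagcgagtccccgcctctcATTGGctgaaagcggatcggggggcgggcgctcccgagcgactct
Sc5d: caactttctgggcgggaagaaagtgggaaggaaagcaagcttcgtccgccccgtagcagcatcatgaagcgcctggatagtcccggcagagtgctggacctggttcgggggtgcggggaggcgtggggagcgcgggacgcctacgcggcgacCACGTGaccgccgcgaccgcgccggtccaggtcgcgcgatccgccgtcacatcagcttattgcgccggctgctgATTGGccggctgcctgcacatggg
Fasn: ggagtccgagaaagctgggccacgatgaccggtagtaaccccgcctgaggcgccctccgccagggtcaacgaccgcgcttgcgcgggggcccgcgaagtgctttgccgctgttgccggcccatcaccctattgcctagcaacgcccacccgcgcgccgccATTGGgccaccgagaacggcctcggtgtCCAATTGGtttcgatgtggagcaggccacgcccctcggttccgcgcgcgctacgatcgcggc

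The *Hmgcs1* match reads TCACCCCAC and begins at -137, counted from the annotated start. *Hmgcs1* was the 1 of 23 members with TCACNCCAC, which 1.44% of the 27025 genes with a promoter held, and a longer, stricter form of that element was found in 0 members. CCAAT was present in 18 of the 23 members (78.3%) against 41.1% of all genes with a promoter. GGGCGG was present in 19 members (82.6%) against 38.2%, and CACGTG in 5 (*Dhcr7*, *Hsd17b7*, *Insig1*, *Sc5d* and *Scap*, 21.7%) against 8.09%. In *Fasn* a CCAAT at -62 overlaps its opposite-strand form at -59. These are matches of exact letters in short windows, so an element that differs by a base is missed. They say nothing of binding in these cells.

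Levels are in FPKM, fragments scaled to gene length and to the mapped total of the library, which allows genes to be compared per length. Members spanned a wide range of FPKM (the dot plot of all members). The mean over the 9 libraries was 35.6 for *Scd2*, 30.7 for *Acly* and 21.0 for *Fasn*, all of the fatty acid branch. It lay between 7.77 and 12.05 for 5 members (*Srebf1*, *Srebf2*, *Ebp*, *Sc5d* and *Scap*), between 1.01 and 4.46 for 17, and between 0.039 and 0.668 for 4 (*Lss*, *Hsd17b7*, *Sqle* and *Scd1*). Sterol enzymes were thus expressed well below the most abundant fatty acid enzymes. Of the 29, 26 were above 0 in every library, and *Hsd17b7*, *Sqle* and *Scd1* were listed at 0 in some. *Scd1*, the desaturase isoform best known from liver and fat, was listed at 0 in 7 libraries, at 0.26 in WT stage 2 replicate 3 and at 0.09 in WT stage 3 replicate 3.

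**Figure D1:**
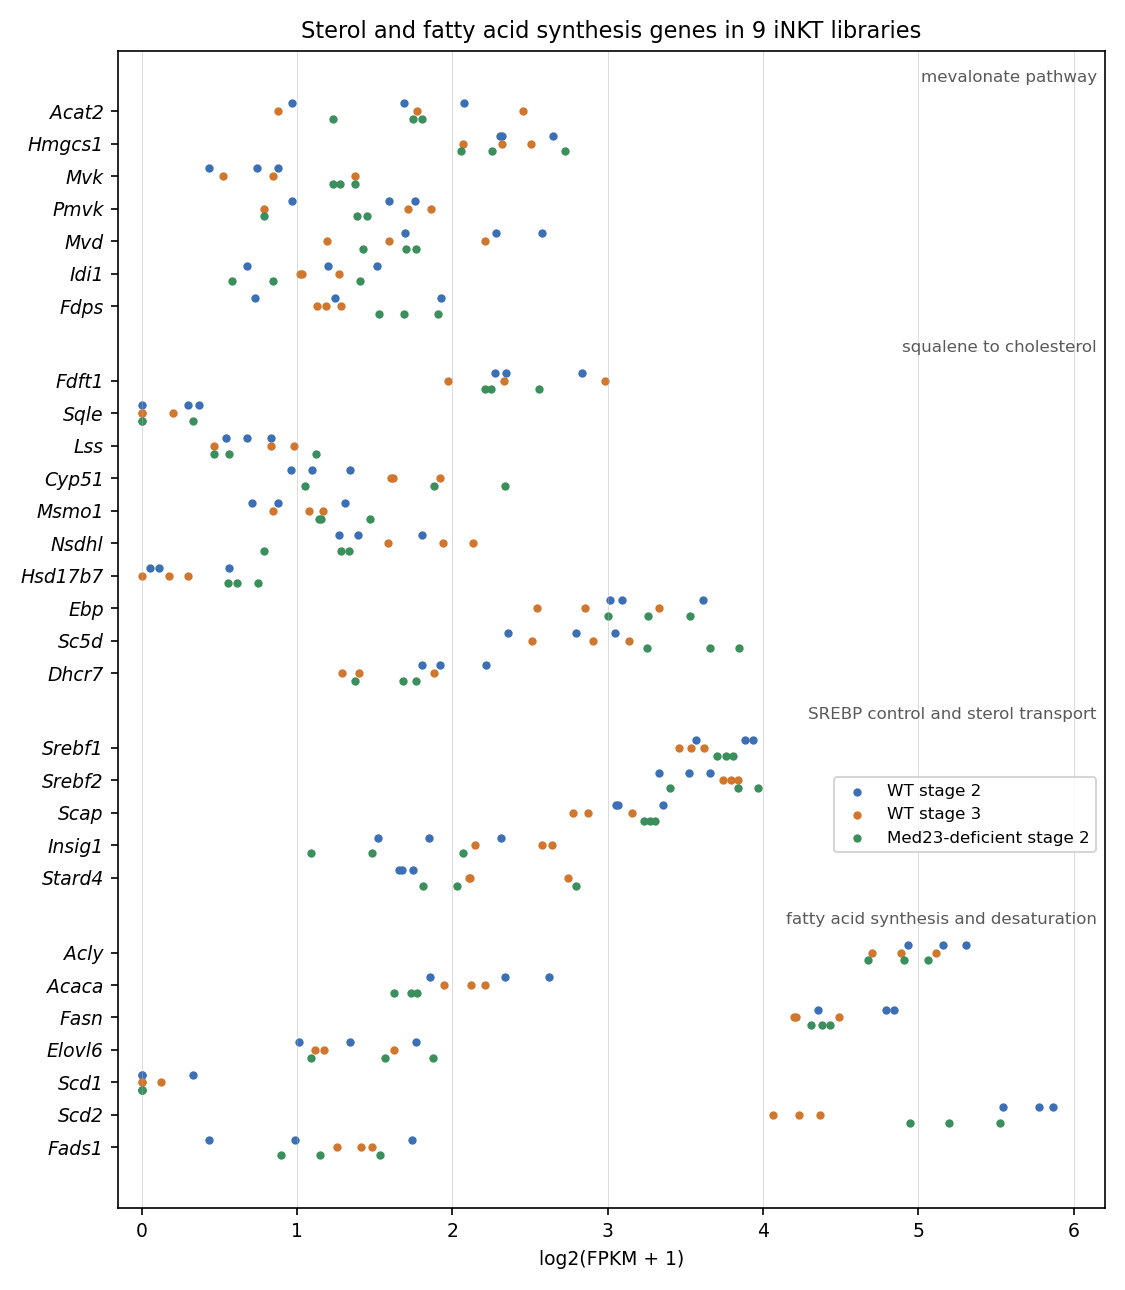
FPKM of the 29 members in 9 libraries, plotted as log2(FPKM + 1) on the x axis, with 1 point per library and 3 libraries per group. *Scd2*, *Acly* and *Fasn* lie farthest right, and the *Scd2* points of WT stage 3 lie left of all other *Scd2* points.

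Library-wide checks bear on every value. The table holds no read counts, so depth is unknown, and 15584 to 17333 genes were above 0 per library. The abundant gene model *Gm23935* took 62.2% to 71.9% of summed FPKM. *Med23* was 5.51, 5.15 and 6.74 FPKM in WT stage 2, 4.80, 3.60 and 3.92 in *Med23*-deficient stage 2, and 7.14, 4.44 and 6.12 in WT stage 3. Every *Med23*-deficient library was below every WT stage 2 library, 1 of them lay within the range of WT stage 3 and the other 2 lay below it, and a value for the whole gene does not separate deleted from retained exons. *Klrb1c*, which encodes the NK1.1 antigen used in the sort, was 57.3 to 95.1 FPKM in WT stage 3, 7.65 to 26.2 in WT stage 2 and 2.61 to 4.60 in *Med23*-deficient stage 2. *Zbtb16*, encoding the iNKT lineage factor PLZF, was 22.7 to 33.4 in WT stage 3, 88.0 to 112 in WT stage 2 and 68.1 to 90.8 in *Med23*-deficient stage 2. Summed FPKM over the 8 immature thymocyte markers was 3.68 to 9.55, over the 3 of 6 B cell markers with a row 0 to 0.51, over 5 of 7 myeloid markers 0.27 to 2.68, over 1 of 6 erythroid markers 0 to 0.75 and over 3 of 5 thymic epithelial markers 0 to 1.07. Against these, the 8 iNKT markers summed to 710 to 1027.

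Differences were tested with limma on log2(FPKM + 1) over all genes above 0 in at least 1 of the 6 libraries compared. A gene was called by a fold change of at least 2 with an unadjusted p of at most 0.05, or by limma's p after Benjamini-Hochberg adjustment over all genes tested, again with 0.05 as the limit. Fold changes are on the log2(FPKM + 1) scale, which understates changes of low genes. The 3 comparisons share libraries pairwise, so their calls are not independent, and p-values measure the spread between libraries, which the sources do not tie to individual mice. In bulk RNA, fewer cells expressing a gene and less RNA per cell cannot be told apart.

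*Scd2*, which desaturates saturated fatty acyl chains, was the called gene among the members, and it fell from WT stage 2 to WT stage 3. Its FPKM was 57.4, 45.6 and 53.9 in WT stage 2, 19.6, 15.7 and 17.8 in WT stage 3, and 45.1, 35.6 and 29.8 in *Med23*-deficient stage 2. All WT stage 3 libraries were below all libraries of both stage 2 groups, and each *Med23*-deficient library was below the lowest WT stage 2 library, by a narrow margin for the highest of them. Mean FPKM was 52.3 ± 6.02 in WT stage 2 and 17.7 ± 1.94 in WT stage 3 (SD, n = 3). The log2 fold change was -1.51 (SE 0.13, 95% confidence interval -1.82 to -1.20), with an adjusted p of 0.0118 by limma, and WT stage 2 was 2.95-fold higher on the FPKM scale.

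*Scd2* in *Med23*-deficient stage 2 cells averaged 36.8 ± 7.74 FPKM, between the WT groups. Against WT stage 3 it was higher by the fold and p call (log2 fold change 1.001, SE 0.17, interval 0.59 to 1.42, unadjusted p = 0.00104 by limma) but not by the adjusted one (0.0653). This value sits at the fold threshold, and the fold and p call was lost on the TPM scale, in a regression adjusted for library size, and without either *Med23*-deficient replicate 1 or WT stage 3 replicate 2, where the log2 fold change was as low as 0.85. Against WT stage 2 it passed neither call (log2 fold change -0.51, SE 0.17, interval -0.92 to -0.09, adjusted p = 0.406 by limma). *Scd2* lies on chromosome 19 at 44293676 to 44306864 on the plus strand (mm10). A microRNA gene, *Mir5114*, lies within its exons on the same strand over 1.12% of their bases, and no other transcript matched it at 97% identity or more over 100 bases. Its closest relative by sequence was *Scd1*, at 95.5% over 623 bases, and *Scd1* was at or near 0 in all libraries.

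The call for *Scd2* in WT stage 3 against WT stage 2 kept its fold in all 17 alternatives run (log2 fold change -1.67 to -1.43), but its adjusted p did not always pass. Without WT stage 2 replicate 3, WT stage 3 replicate 2 or WT stage 3 replicate 3, no member passed the adjusted call, and the adjusted p of *Scd2* ranged from 0.0281 to 0.0660 over the libraries left out in turn. It was 0.160 at its highest, over all alternatives.

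**Figure D2:**
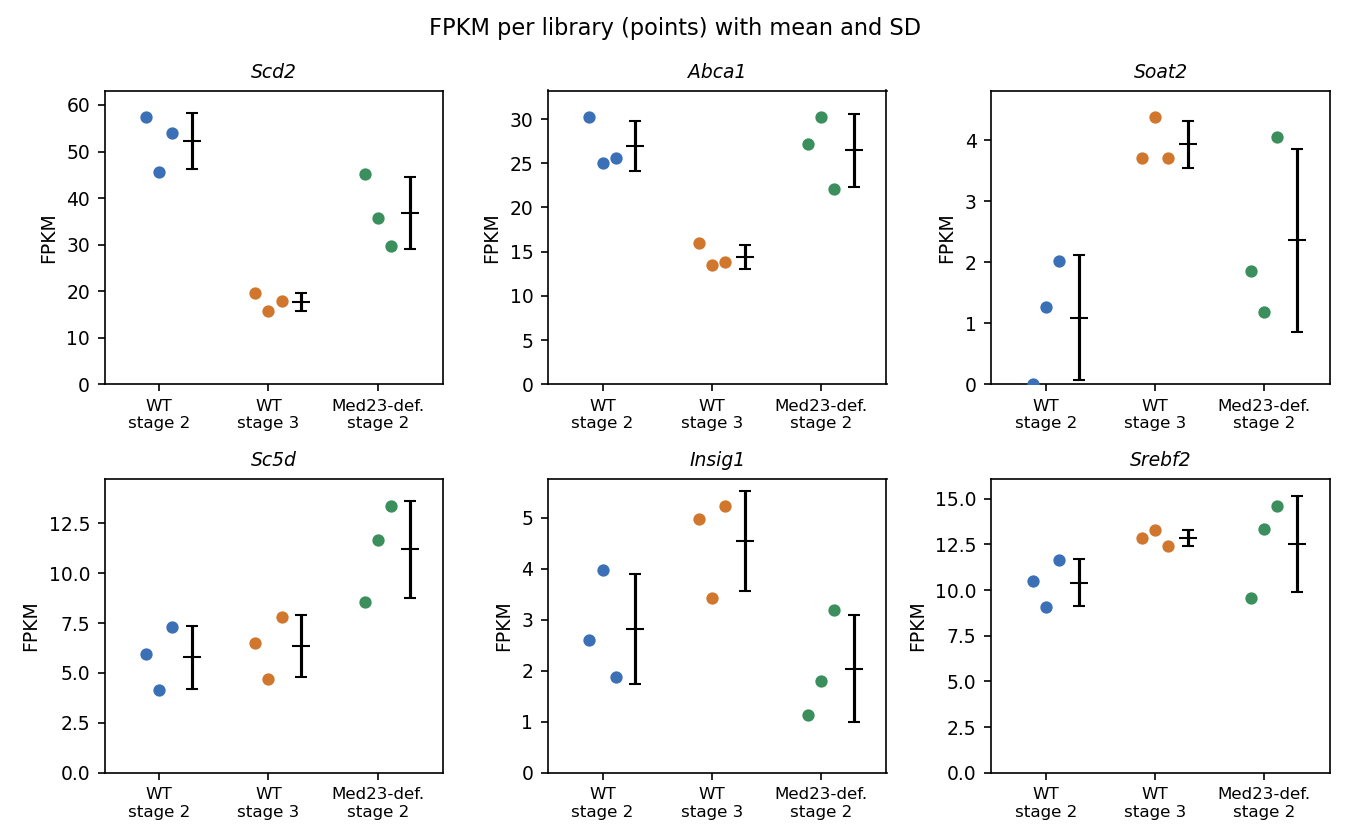
FPKM (y axis, linear from 0) per library for 6 genes in the 3 groups, with 1 point per library and the mean and SD beside them. *Scd2* and *Abca1* are lowest in the WT stage 3 libraries, at 15.7 to 19.6 and 13.4 to 15.96 FPKM, and *Sc5d* is highest in the *Med23*-deficient libraries, at 8.54 to 13.4.

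Across the whole set, 1 of 29 members passed the fold and p call in WT stage 3 against WT stage 2 (background over all genes 3.6%) and 1 passed the adjusted call (background 1.67%), *Scd2* in both cases. At an unadjusted p of at most 0.05, limma gave 3 there (*Scd2*, *Cyp51* and *Stard4*, background 13.2%). In *Med23*-deficient against WT stage 2 cells, 0 of 29 passed either call (backgrounds 2.11% and 0.213%), and 3 reached that unadjusted p (*Sc5d*, *Mvk* and *Scd2*) against a background of 9.58%. In *Med23*-deficient stage 2 against WT stage 3 cells, 1 passed the fold and p call (*Scd2*, background 2.86%) and 0 the adjusted call (background 1.33%), with 5 at the same unadjusted p by limma (*Scd2*, *Sc5d*, *Hsd17b7*, *Insig1* and *Nsdhl*, background 10.2%). Groups did not overlap for 4 of 29 members in the WT comparison (13.8%, background 17.8%), for 6 in *Med23*-deficient against WT stage 2 (20.7%, background 14%) and for 9 in *Med23*-deficient against WT stage 3 (31.0%, background 14.2%). With 0 or 1 of 29 members past each call, these counts are too small to place the set against the background. Most members average 1 FPKM or more. Over all genes at that level, the shares at the unadjusted p were 18.1%, 12.9% and 13.4% in the 3 comparisons, in the same order. The shares without overlap there were 24.5%, 19.0% and 18.9%.

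The middle of the set lay close to that of all genes. The median log2 fold change over the 29 members was -0.07 in WT stage 3 against WT stage 2, -0.04 in *Med23*-deficient against WT stage 2 and 0.04 in *Med23*-deficient against WT stage 3. Over all genes averaging 1 FPKM or more it was -0.05, -0.05 and 0.00. Confidence intervals lay wholly within a 2-fold difference either way for 20, 17 and 21 of the 29 members in these comparisons, in the same order (the plot of differences with their intervals). For the rest, a 2-fold difference lies within the interval or was passed. On the log2(FPKM + 1) scale, low genes need more than a 2-fold change of FPKM to reach 2-fold. The counts thus say little of members under 1 FPKM. *Hsd17b7* counts as within 2-fold in *Med23*-deficient stage 2 against WT stage 3, at mean FPKM of 0.56 against 0.12.

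**Figure D3:**
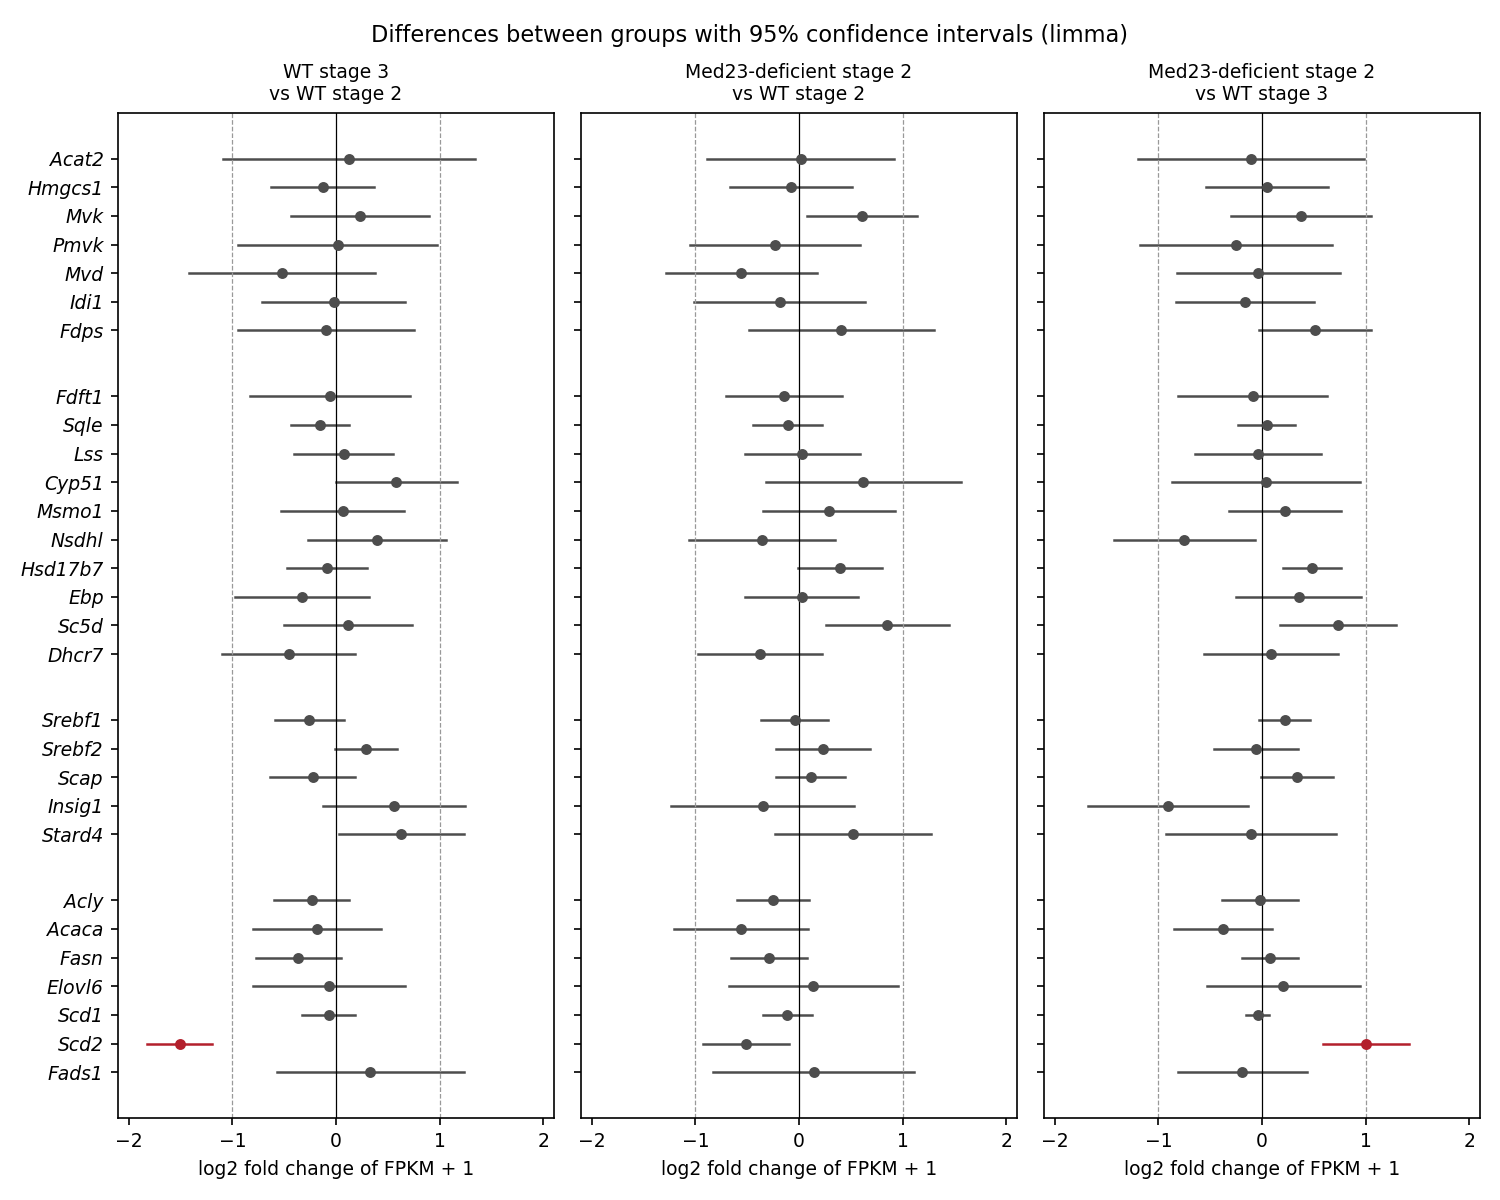
Log2 fold change of FPKM + 1 (x axis) for the 29 members in the 3 comparisons, with 95% confidence intervals from limma. Dashed lines mark a 2-fold difference and red marks members past either call, which is *Scd2* in the left (-1.51) and right (1.001) panels.

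None of the 4 regulators of the pathway was called by limma in any of the 3 comparisons. *Srebf1*, encoding SREBP1, was 13.8, 10.9 and 14.3 FPKM in WT stage 2, 11.3, 9.98 and 10.6 in WT stage 3, and 12.6, 13.0 and 12.02 in *Med23*-deficient stage 2. *Srebf2*, encoding SREBP2, was 10.5, 9.06 and 11.6 in WT stage 2, 12.9, 13.3 and 12.4 in WT stage 3, and 9.57, 13.3 and 14.6 in *Med23*-deficient stage 2. All 3 WT stage 3 libraries were above the WT stage 2 libraries for *Srebf2*, by a log2 fold change of 0.29 (SE 0.12, interval -0.01 to 0.59, adjusted p = 0.401 by limma), while the *Srebf1* groups overlapped in the WT comparison. *Srebf1* differed by -0.26 (SE 0.14, adjusted p = 0.496) in WT stage 3 against WT stage 2. In *Med23*-deficient against WT stage 2 cells the differences were -0.04 for *Srebf1* and 0.23 for *Srebf2*, with intervals of -0.36 to 0.28 and -0.22 to 0.68.

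*Scap*, the escort of both SREBPs, was 7.37, 9.25 and 7.31 FPKM in WT stage 2, 5.84, 6.32 and 7.91 in WT stage 3, and 8.66, 8.40 and 8.89 in *Med23*-deficient stage 2. The *Med23*-deficient libraries were above all WT stage 3 libraries and within the range of WT stage 2. The log2 fold change against WT stage 3 was 0.34 (interval -0.01 to 0.68, adjusted p = 0.511 by limma). *Insig1*, the sterol-sensitive retention factor and itself an SREBP target, was 2.61, 3.98 and 1.87 in WT stage 2, 4.97, 3.43 and 5.24 in WT stage 3, and 1.13, 1.80 and 3.19 in *Med23*-deficient stage 2. Here the *Med23*-deficient libraries were all below the WT stage 3 libraries, with a log2 fold change of -0.91 (SE 0.31, interval -1.68 to -0.14, adjusted p = 0.379 by limma), and both overlapped WT stage 2.

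*Stard4* encodes a cytosolic sterol carrier that SREBP2 also targets. It was 2.36, 2.15 and 2.19 FPKM in WT stage 2, 5.70, 3.33 and 3.31 in WT stage 3, and 5.96, 2.51 and 3.09 in *Med23*-deficient stage 2. WT stage 2 was the lowest group with no overlap, and a single library, replicate 1, was far above the other 2 in each of the other groups. The log2 fold change was 0.63 (SE 0.25, adjusted p = 0.351 by limma) in WT stage 3 and 0.52 (SE 0.31, adjusted p = 0.679) in *Med23*-deficient stage 2, both against WT stage 2.

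The 7 mevalonate pathway genes gave 0 calls in the 3 comparisons, with log2 fold changes between -0.55 and 0.61. *Mvd*, the decarboxylase that makes isopentenyl diphosphate, was 4.97, 2.24 and 3.87 FPKM in WT stage 2, 3.63, 1.29 and 2.01 in WT stage 3, and 2.25, 2.40 and 1.69 in *Med23*-deficient stage 2. Its groups overlapped throughout, at -0.52 (SE 0.37) for WT stage 3 and -0.55 (SE 0.30) for *Med23*-deficient stage 2 against WT stage 2. *Mvk*, mevalonate kinase, was 0.84, 0.35 and 0.67 in WT stage 2, 0.44, 0.80 and 1.59 in WT stage 3, and 1.59, 1.35 and 1.42 in *Med23*-deficient stage 2. The *Med23*-deficient libraries were all above the WT stage 2 libraries, by 0.61 (SE 0.22, interval 0.08 to 1.14), which did not pass the adjusted call (0.437, limma).

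*Fdps*, farnesyl diphosphate synthase, was 2.80, 0.66 and 1.37 FPKM in WT stage 2, 1.44, 1.28 and 1.19 in WT stage 3, and 1.89, 2.76 and 2.22 in *Med23*-deficient stage 2. The *Med23*-deficient libraries were above all WT stage 3 libraries, by 0.51 (SE 0.22, interval -0.03 to 1.05, adjusted p = 0.525 by limma). *Gm43738* shares 26.7% of the exon bases of *Fdps* on the same strand, so the reads of the pair may have been split. For *Acat2*, *Hmgcs1*, *Pmvk* and *Idi1* the groups overlapped in every comparison. *Acat2* and *Idi1* share near-identical sequence (at least 97%) with other genes over 65.6% and 33.3% of their longest transcripts.

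Of the 10 enzymes that take farnesyl diphosphate through squalene to cholesterol, 0 were called in any comparison. *Sc5d*, the sterol C5-desaturase of the last steps, was 5.95, 4.14 and 7.28 FPKM in WT stage 2, 6.51, 4.71 and 7.80 in WT stage 3, and 8.54, 11.6 and 13.4 in *Med23*-deficient stage 2. Every *Med23*-deficient library was above every library of both WT groups, which overlapped each other. Mean FPKM was 11.2 ± 2.45, against 5.79 ± 1.58 in WT stage 2 and 6.34 ± 1.55 in WT stage 3 (SD, n = 3). The log2 fold change was 0.85 (SE 0.24, interval 0.26 to 1.44, adjusted p = 0.317 by limma) against WT stage 2 and 0.73 (SE 0.23, interval 0.17 to 1.29, adjusted p = 0.312) against WT stage 3. Without WT stage 2 replicate 3 or *Med23*-deficient replicate 1, *Sc5d* passed the fold and p call against WT stage 2, with a log2 fold change of up to 1.02.

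*Cyp51*, the lanosterol demethylase, was 0.95, 1.53 and 1.14 FPKM in WT stage 2, 2.79, 2.04 and 2.07 in WT stage 3, and 4.05, 2.68 and 1.07 in *Med23*-deficient stage 2. WT stage 3 was above WT stage 2 without overlap (log2 fold change 0.58, SE 0.24, adjusted p = 0.377 by limma), and the *Med23*-deficient libraries were too scattered to set apart from either. *Nsdhl*, a dehydrogenase of sterol C4 demethylation, was 2.50, 1.63 and 1.41 in WT stage 2, 3.39, 2.83 and 2.0 in WT stage 3, and 0.73, 1.44 and 1.52 in *Med23*-deficient stage 2. It was lower in all *Med23*-deficient than in all WT stage 3 libraries, by a log2 fold change of -0.75 (SE 0.28, interval -1.42 to -0.07, adjusted p = 0.423 by limma).

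*Hsd17b7*, the reductase that works beside *Nsdhl*, was at most 0.68 FPKM in any library and listed at 0 in WT stage 3 replicate 2. The *Med23*-deficient libraries (0.47, 0.53 and 0.68) were above those of WT stage 3 (0.23, 0 and 0.13), and WT stage 2 (0.48, 0.08 and 0.04) overlapped both. The log2 fold change against WT stage 3 was 0.48 (SE 0.12, interval 0.20 to 0.76, adjusted p = 0.171 by limma), at levels under 1 FPKM. *Sqle*, the squalene epoxidase, was listed at 0 in 5 libraries and at 0.15 to 0.29 in the other 4. *Dhcr7*, the last reductase, was lower without overlap in *Med23*-deficient than in WT stage 2 cells (log2 fold change -0.37, SE 0.25, adjusted p = 0.721 by limma). *Ebp*, *Fdft1*, *Lss* and *Msmo1* overlapped between the groups in all comparisons, and 54.7% of the longest *Fdft1* transcript matches *Ctsb* or *Gm6781* at 97% identity or more.

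In the fatty acid branch, *Acly* (24.6 to 38.5 FPKM over the 9 libraries) and *Fasn* (17.4 to 27.8) were abundant in every group. *Acly* supplies cytosolic acetyl-CoA and *Fasn* builds palmitate from it. Their log2 fold changes were -0.23 (SE 0.15) and -0.36 (SE 0.17) in WT stage 3, and -0.25 (SE 0.14) and -0.29 (SE 0.15) in *Med23*-deficient stage 2, each against WT stage 2 and none called. *Acaca*, the carboxylase that commits acetyl-CoA to this route, was 2.62, 5.16 and 4.05 in WT stage 2, 3.62, 3.35 and 2.85 in WT stage 3, and 2.33, 2.09 and 2.42 in *Med23*-deficient stage 2. The *Med23*-deficient libraries lay below both WT groups without overlap, at -0.56 (SE 0.26, adjusted p = 0.577 by limma) and -0.38 (SE 0.19, adjusted p = 0.608). *Gm5182* matches 64.3% of the longest *Acaca* transcript at 97% identity or more, so this value is uncertain. *Elovl6* and *Fads1*, an elongase and a desaturase of longer chains, overlapped between groups in every comparison.

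Summed over role groups, the branches differed in pattern. The 7 fatty acid genes summed to 118 ± 9.61 FPKM in WT stage 2, 90.8 ± 12.1 in *Med23*-deficient stage 2 and 72.0 ± 4.87 in WT stage 3 (SD, n = 3), with no overlap between any of the groups. *Scd2* alone made up 44.2% ± 1.83, 40.3% ± 3.10 and 24.6% ± 2.50 of these sums. Without *Scd2* the sums were 70.2, 62.7 and 64.5 in WT stage 2, 58.4, 53.8 and 49.7 in *Med23*-deficient stage 2, and 57.1, 56.5 and 49.2 in WT stage 3. Both other groups were thus below WT stage 2 without *Scd2* as well, and they overlapped each other. Most of these sums came from *Acly* and *Fasn*, at means of 34.3 and 24.6 FPKM in WT stage 2. Neither gene was called, and each overlapped WT stage 2 in both other groups, so the sums do not show a fall across the branch. *Scd2* stood at 2.15 ± 0.18 times *Fasn* in WT stage 2, 1.86 ± 0.31 in *Med23*-deficient stage 2 and 0.96 ± 0.20 in WT stage 3. The WT stage 3 ratios (0.73 to 1.13) were below those of both stage 2 groups. The ratios of WT stage 2 (2.02 to 2.35) and *Med23*-deficient stage 2 (1.58 to 2.19) overlapped.

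The 17 sterol enzymes together gave 44.8, 41.9 and 41.1 FPKM in WT stage 2, 47.4, 35.3 and 39.4 in WT stage 3, and 44.3, 48.1 and 48.8 in *Med23*-deficient stage 2. These sums overlapped between all groups. Leaving out *Sc5d*, they were 36.8 ± 2.64, 34.4 ± 5.66 and 35.9 ± 0.50 in the same order. Taken alone, the squalene to cholesterol genes, with *Sc5d* among them, summed to 27.1 ± 1.86, 26.6 ± 3.41 and 32.6 ± 1.61. Their *Med23*-deficient sums (31.5 to 34.5) were above those of every WT library (24.5 to 30.5). *Sc5d* gave 8.54 to 13.4 FPKM of the *Med23*-deficient sums and 4.14 to 7.80 of the WT sums. No sum of this group without *Sc5d* was made, so the separation is not read as a rise of the other genes. The mevalonate pathway sums overlapped between all groups. The 5 genes of SREBP control and sterol transport summed to 36.4 ± 1.01, 38.8 ± 2.23 and 39.6 ± 2.01. There the *Med23*-deficient sums (37.9 to 41.8) were above those of WT stage 2 (35.3 to 37.3), and WT stage 3 overlapped both. These sums are given as descriptions, with no test.

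**Figure D4:**
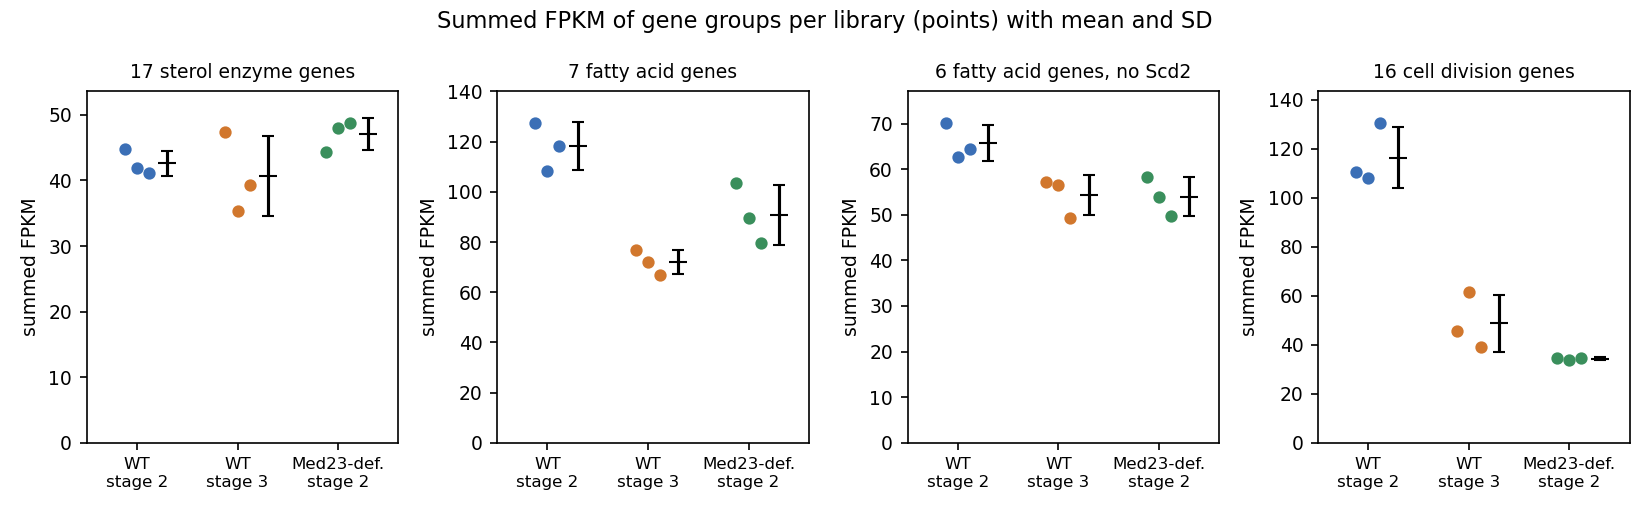
Summed FPKM (y axis, linear from 0) per library for the sterol enzyme members, the fatty acid members with and without *Scd2*, and 16 cell division genes, with 1 point per library and the mean and SD beside them. The fatty acid and cell division sums are highest in the WT stage 2 libraries, at 108 to 128 and 108 to 131, while the sterol enzyme sums overlap.

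Cell division genes were at their highest in WT stage 2. Their summed FPKM was 108 to 131 in WT stage 2, 39.1 to 61.6 in WT stage 3 and 33.6 to 34.6 in *Med23*-deficient stage 2. By the fold and p call, 9 of 16 were lower in WT stage 3 (background 3.6%) and 8 of 16 in *Med23*-deficient stage 2 (background 2.11%), each against WT stage 2, and by the adjusted call 3 of 16 in each (backgrounds 1.67% and 0.213%). In *Med23*-deficient stage 2 against WT stage 3, 0 of 16 were called either way by limma, with 1 (*Pcna*, lower) at an unadjusted p of at most 0.05 and a median log2 fold change of -0.01. Without *Pcna*, singled out after its values were seen, the sums of these groups overlapped, at 15.5 to 18.2 and 13.6 to 29.1 FPKM. The part of dividing cells in the *Scd2* difference was not tested.

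Other genes of sterol and lipid handling were read from 5 lists of 61 genes. In WT stage 3 against WT stage 2, 2 of the 53 tested were called, 1 by each call (backgrounds 3.6% by fold and p and 1.67% by adjusted p). By limma, 4 were higher and 11 lower at an unadjusted p of at most 0.05 (28.3%). The background was 13.2%, or 18.1% over genes averaging 1 FPKM or more. Groups did not overlap for 35.8% of the 53 (background 17.8%, or 24.5% over genes averaging 1 FPKM or more). *Abca1*, the cholesterol efflux pump and a target of the sterol receptor LXR, was 30.2, 25.1 and 25.6 FPKM in WT stage 2, 15.96, 13.4 and 13.8 in WT stage 3, and 27.2, 30.2 and 22.1 in *Med23*-deficient stage 2. It fell in WT stage 3 by the adjusted call (log2 fold change -0.86, SE 0.12, interval -1.15 to -0.57, adjusted p = 0.0343 by limma), short of a 2-fold change, and the stage 2 groups overlapped each other. *Soat2*, an enzyme that esterifies cholesterol, was 0, 1.26 and 2.02 in WT stage 2, 3.71, 4.38 and 3.71 in WT stage 3, and 1.85, 1.18 and 4.05 in *Med23*-deficient stage 2. It was higher in WT stage 3 than in WT stage 2 by the fold and p call (log2 fold change 1.38, SE 0.44, adjusted p = 0.245 by limma).

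The list of LXR, efflux and esterification genes held both. At an unadjusted p of at most 0.05 by limma, 5 of its 9 genes differed, 4 lower and 1 higher. The background was 13.2%, or 18.1% over genes averaging 1 FPKM or more. By sign alone, 4 of the 9 were higher and 5 lower. *Abcg1* of this list averaged 28.8 FPKM in WT stage 2 and 30.1 in WT stage 3 (log2 fold change 0.07), with overlap. The list thus did not fall as a whole. The share was 30% for sterol sensing, uptake and trafficking genes (2 higher and 1 lower of 10). It was 23.5% for other fatty acid synthesis and activation genes (1 higher and 3 lower of 17). For fatty acid oxidation genes it was 22.2% (0 higher and 2 lower of 9). Other sterol synthesis genes gave 12.5% (0 higher and 1 lower of 8). In *Med23*-deficient against WT stage 2 cells, 0 of 54 genes of the 5 lists were called, with 6 (11.1%) at an unadjusted p of at most 0.05 by limma, near the background of 9.58%. The same 2 counts were 0 of 55 and 6 (10.9%, background 10.2%) in *Med23*-deficient stage 2 against WT stage 3. *Abca1* differed there by 0.83 (SE 0.14, interval 0.48 to 1.17), with an adjusted p of 0.0663 by limma.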

How the data were processed

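RNA of sorted thymic iNKT cells was sequenced in 9 libraries, 3 per group. Per the paper's methods and the labels, the authors extracted RNA with Trizol, prepared strand-specific total RNA libraries with a low-input kit, trimmed reads with Trimmomatic 0.36, aligned them to mm10 with HISAT2, kept reads mapping to no more than a pair of loci and quantified GENCODE vM12 genes with StringTie. HISAT2 and StringTie versions are not given in the sources used here. The values used are the FPKM the authors deposited as 1 table of 21883 genes, with replicates kept apart. FPKM carries no depth. Low values were checked for whole reads over 7071 genes with a single transcript, and at most 28.3% fell within 0.1 of a whole multiple, where 20% would by position alone. No reads were therefore recovered and no counting interval is given.

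From these values log2(FPKM + 1) was fitted in R 4.3.3 by limma 3.58.1 (lmFit, then eBayes with the trend of variance on mean), each fit on the 6 libraries compared and on genes not at 0 in all of them (20689, 20674 and 20846 genes), with Benjamini-Hochberg adjustment over all of them. The fold and p thresholds follow the study. The fit was tested on data simulated with normal noise, with 200 genes changed by 2 on the log2 scale. The fold and p call found 98.5% to 100% of them and the adjusted call 43% to 56.5%. Genes at the lowest levels, some members among them, were left out when the changed genes were drawn. No member differed by as much as 2, so these shares do not apply to the smaller differences of members. With 0 genes changed, 110 to 121 genes passed the fold and p call and 0 the adjusted call. Groups and replicate numbers came from the labels. Same-numbered libraries deviated together weakly (r of 0.00 to 0.27), most clearly for replicate 3 (0.14 to 0.27). Differently numbered libraries gave r of -0.17 to 0.12, negative in every pair with replicate 3. The number was not used as a block in the main fits, and a fit with it is among the alternatives. An exact permutation test of 3 against 3 libraries cannot go below 0.1 and was not used. Sums and ratios of FPKM are descriptions.

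The 30 genes, the role groups and the other gene lists were chosen with earlier results of these data known. Values in every library are given for members past either call, for the member of each role group with the largest absolute log2 fold change in each comparison, and for *Srebf1*, *Srebf2*, *Scap* and *Insig1*. *Hsd17b7* and *Scd1* were added after their values were seen. Of the other lists, genes past either call are named, and *Abcg1* was added after its values were seen. None of the 6 adipocyte markers was among the rows used. Coordinates are those of the table (mm10). The exons of GENCODE vM21, on the same assembly, gave overlaps, BLAST 2.17.0 gave near-identical sequence, and 23 of 29 members had the same coordinates there. Promoters are from RefSeq. Alternatives covered the pseudocount, the filter, the scaling, the variance model, the libraries in the fit, a replicate block and each library left out in turn. Python 3.11.15 and matplotlib 3.10.9 were used.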

Additional observations from a re-analysis of the deposited data

How the results depend on the processing

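Of 1464 values of single members recomputed under the alternatives, 1362 kept their sign and stayed called or uncalled. A value counts here as called if it passed either call. Another 87 changed sign while uncalled in both fits, 11 became called, 4 became uncalled and 0 called values changed sign. Losses of the adjusted call alone, as for *Scd2* in WT stage 3 against WT stage 2, are therefore not among the 4. An ordinary regression for each gene that adjusts for library size, as the authors' software does, gave 2 members past the fold and p call (*Scd2* and *Fads1*), 0 past the adjusted call and a median of -0.14 in WT stage 3 against WT stage 2, a median of 0.070 in *Med23*-deficient against WT stage 2, and 0 past the fold and p call in *Med23*-deficient against WT stage 3. Scaling to the upper quartile moved the median to 0.058 in *Med23*-deficient against WT stage 2. In *Med23*-deficient against WT stage 3, the fold and p count was 4 with a pseudocount of 0.1 (*Scd2*, *Nsdhl*, *Hsd17b7* and *Insig1*), 3 with 0.01, 0 on the TPM scale and 2 on that scale without *Gm23935*. The adjusted count there was 1 (*Scd2*) with a pseudocount of 0.01, among genes averaging 1 FPKM or more, with upper quartile scaling and with all 9 libraries in the fit. The TPM scale moved the median of all genes averaging 1 FPKM or more to -0.13 in WT stage 3 and -0.15 in *Med23*-deficient stage 2, both against WT stage 2. Of all genes past the fold and p call in *Med23*-deficient against WT stage 2, 37.8% were higher, 26.0% on the TPM scale and 51.9% in the regression with library size. The causes were not tested.

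Leaving out each library in turn gave, in WT stage 3 against WT stage 2, 1 to 1 members past the fold and p call, 0 to 1 past the adjusted call and a median of -0.13 to -0.0027. In *Med23*-deficient against WT stage 2 it gave 0 to 1 (*Sc5d*), 0 to 0 and -0.08 to 0.01, and in *Med23*-deficient against WT stage 3 it gave 0 to 2, 0 to 0 and -0.015 to 0.11. In the last comparison the count was 0 without *Med23*-deficient replicate 1, 2 (*Insig1* and *Scd2*) without *Med23*-deficient replicate 3, and 1 (*Insig1* in place of *Scd2*) without WT stage 3 replicate 2. With the replicate number as a block, the counts of members stayed at 1 and 1, 0 and 0, and 1 and 0 by the fold and p and the adjusted call in the 3 comparisons, and *Scd2* in WT stage 3 against WT stage 2 had an adjusted p of 0.0439 by limma, while calls over all genes by the adjusted p went from 346, 44 and 278 to 19, 0 and 42. Low genes such as *Sqle*, *Scd1* and *Hsd17b7* are limited by depth, which the table does not give.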
